A study of Mus musculus with 7 samples.

Results

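The transcripts of Mdm2, Mdm4 and Trp53 were followed across 7 RNA sequencing libraries of mouse embryonic fibroblasts. They were taken as the rows of the deposited table that carry these symbols, which are 3 of 29955 rows. All libraries were labelled C57BL/6 and all were labelled as lacking p53, so no group has intact p53 for comparison. The p53 KO group (n = 3) has this defect alone. The p53/Mdm2 KO group (n = 2) lacks Mdm2 as well, and the group called Mdm2 C462A (n = 2) combines the p53 knockout with a knock-in of the C462A substitution in Mdm2. How the knockout alleles were made is not described in the labels, nor is the origin of the replicates from the same or different embryos and cultures. P-values of group differences here therefore only set a difference against the scatter among these samples, and that scatter may be technical. The study title asks what Mdm2 does to chromatin, through the Polycomb repressor complex PRC2, where p53 is absent.

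Trp53 encodes p53, a transcription factor that halts the cell cycle or triggers cell death after damage. Mdm2 encodes a RING-type ubiquitin ligase that binds p53, blocks its activity and marks it for degradation, and p53 in turn drives Mdm2 transcription from a promoter within the Mdm2 gene, so that the pair forms a feedback loop. Mdm4, also called Mdmx, encodes a relative of Mdm2 that binds p53 and joins Mdm2 through its own RING domain but has little ligase activity alone. Mdm2 also has an upstream, constitutive promoter, and which promoter was used in these libraries was not measured.

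The substitution that defines the Mdm2 C462A group lies in the RING domain. The coding sequence around it is shown because it marks what the knock-in changes, with the stretch of Mdm4 that matched it best. Both are 5′ to 3′ from GENCODE transcripts of GRCm38, cover codons 448 to 476, and have the codon named by C462A in capitals.
Mdm2: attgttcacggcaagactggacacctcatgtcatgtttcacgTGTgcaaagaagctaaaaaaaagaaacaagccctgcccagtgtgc
Mdm4: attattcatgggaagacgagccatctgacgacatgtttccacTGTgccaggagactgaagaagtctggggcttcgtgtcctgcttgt
In Mdm2 this codon is TGT, for cysteine, and Mdm4 has TGT at the matching place, which is the codon of the same number. The stretches matched at 51 of 87 bases (58.6%), against 34 in the next best in-frame window of Mdm4. These are reference sequences: the reads of the knock-in allele itself were not used here.

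The libraries held between 28.5 M and 41.5 M recovered reads. In a principal component analysis the leading axis (44.3% of the variance) set p53 KO replicate 1 apart, and the next (24.9%) set Mdm2 C462A replicate 2 apart. Fibroblast markers were read in every library, 12 of 12 above 3 reads, and their summed level ran from 1010752 to 2136497 normalized reads in p53 KO, 947824 to 1418812 in p53/Mdm2 KO and 992383 to 1472454 in Mdm2 C462A. p53 KO replicate 1 had 3456 normalized reads of the collagen gene Col1a2 and 99.1 of the surface marker Thy1, where no other library was below 175050 and 6592. Markers of other cell types were low, with summed ranges over all libraries of 392 to 2413 normalized reads for 7 epithelial, 76.3 to 1052 for 5 endothelial, 72.3 to 921 for 7 blood cell, 151 to 2394 for 5 muscle and 465 to 1277 for 5 neural markers. The epithelial marker Epcam, the endothelial Pecam1 and the blood cell Ptprc had at most 23.1, 6.01 and 73.3 normalized reads, while Krt19 reached 1911, Des 2388 and Kdr 994. By group, the epithelial sums ran from 454 to 1077 in p53 KO, 1987 to 2314 in p53/Mdm2 KO and 392 to 2413 in Mdm2 C462A. In the same order, the endothelial sums ran from 76.3 to 572, 842 to 1052 and 471 to 584. The blood cell sums ran from 186 to 921, 129 to 362 and 72.3 to 330. The part of these differences in the results was not tested.

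Mdm2 transcripts were read in every library, including those labelled as lacking Mdm2, whose mean level was 1.04 times that of p53 KO. A level is given here as normalized reads, that is, reads divided by the size factor of the library. Mdm2 had 1746, 1994 and 1914 normalized reads in p53 KO replicates 1, 2 and 3, 1575 and 2334 in p53/Mdm2 KO replicates 1 and 2, and 2033 and 2887 in Mdm2 C462A replicates 1 and 2. The p53/Mdm2 KO libraries lay on either side of all p53 KO libraries, while both Mdm2 C462A libraries lay above them, replicate 1 by a small margin. Mean Mdm2 levels with their SD were 1885 ± 126 for the 3 p53 KO libraries, 1954 ± 537 for the 2 of p53/Mdm2 KO and 2460 ± 604 for the 2 of Mdm2 C462A. Counting error was small beside this spread, between 1.75% and 2.43% of a library's Mdm2 reads.

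The test of differences was limma on the deposited log2-scale values, adjusted over all 16900 genes tested. For Mdm2 the difference of p53/Mdm2 KO from p53 KO was 0.03 on this scale (SE 0.24, limma adjusted p = 1.00), with a 95% interval from -0.55 to 0.61, or 0.682-fold to 1.52-fold. The sign of this difference turned with single libraries: it was -0.25 without p53/Mdm2 KO replicate 2 and -0.03 without p53 KO replicate 1. The labels do not say which part of Mdm2 the knockout removes, and reads inside any removed part were not separated from the rest, so these totals check no label. Mdm2 C462A lay above p53 KO by 0.36 (SE 0.24, limma adjusted p = 0.647), an interval of -0.22 to 0.94, and above p53/Mdm2 KO by 0.33 (SE 0.26, limma adjusted p = 1.00). The former was 0.11 without Mdm2 C462A replicate 2 and 0.61 without replicate 1. Both Mdm2 C462A libraries were above all p53 KO libraries, a pattern of no overlap that 14.1% of all tested genes showed in that direction.

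**Figure D1:**
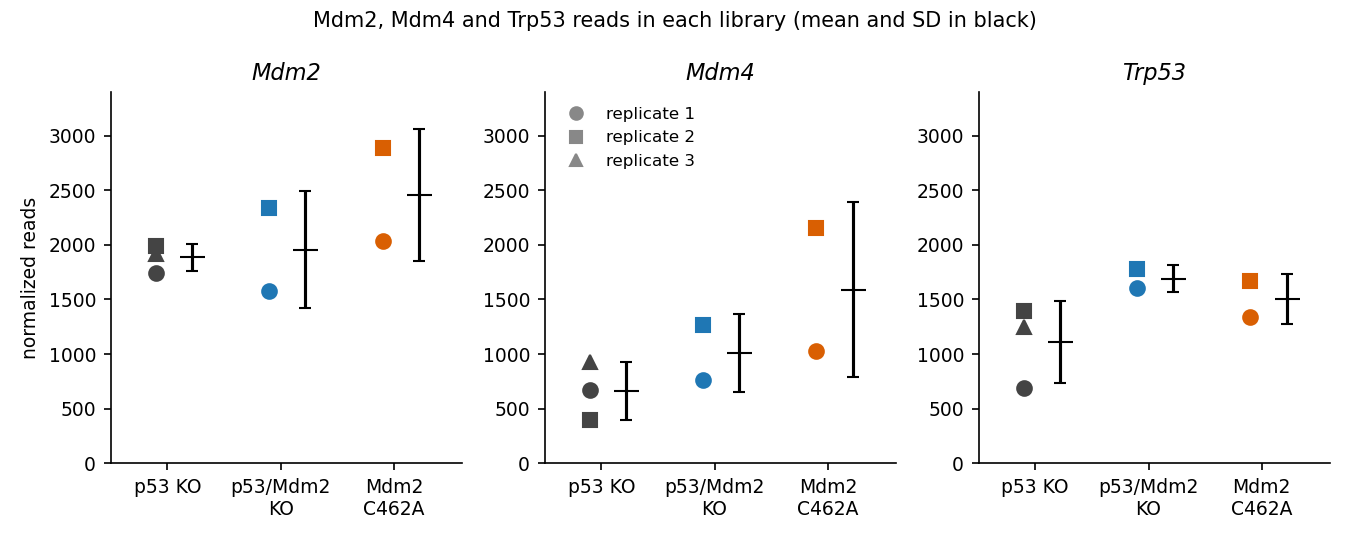
Normalized reads of Mdm2, Mdm4 and Trp53 (vertical axis) in each library, by genotype, with replicate numbers as symbols and the group mean and SD in black. Mdm2 stays between 1575 and 2887 in all libraries, Mdm4 is highest in Mdm2 C462A replicate 2 (2156), and Trp53 is lowest in p53 KO replicate 1 (687).

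Mdm4 varied most among the 3 genes, and its highest value was in Mdm2 C462A replicate 2. It had 668, 394 and 929 normalized reads in p53 KO replicates 1, 2 and 3, 760 and 1263 in p53/Mdm2 KO replicates 1 and 2, and 1025 and 2156 in Mdm2 C462A replicates 1 and 2. Both Mdm2 C462A libraries were above all p53 KO libraries, and p53/Mdm2 KO overlapped both other groups, where 15.8% of tested genes were higher without overlap in Mdm2 C462A than in p53/Mdm2 KO. The highest library had 5.46 times the level of the lowest, against 1.83 times for Mdm2 and 2.58 times for Trp53. The SD of Mdm4 over the 7 libraries was 0.75 on the log2 scale, larger than that of 84.8% of tested genes, where Mdm2 (0.28) exceeded 40.4% and Trp53 (0.45) exceeded 67.2%. Counting error of Mdm4 was between 2.02% and 4.85%.

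The mean Mdm4 level was 2.40 times as high in Mdm2 C462A as in p53 KO, a log2 difference of 1.22 with an interval of 0.08 to 2.36. It had an unadjusted p of 0.0390, as did 10.4% of all tested genes under 0.05 in that comparison, and it did not pass the adjusted test (SE 0.47, limma adjusted p = 0.462). Without Mdm2 C462A replicate 2 the difference was 0.69 (limma adjusted p = 1.00), and without replicate 1 it was 1.75. Without p53 KO replicate 2, the library with the least Mdm4, it was 0.90. Leaving out both libraries that stood apart gave 0.74 (limma adjusted p = 0.800). The no-overlap pattern is again one that 14.1% of tested genes showed.

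The other Mdm4 comparisons were smaller. p53/Mdm2 KO lay above p53 KO by 0.63 (SE 0.47, limma adjusted p = 1.00), between 0.27 and 0.99 as single libraries were left out. Mdm2 C462A lay above p53/Mdm2 KO by 0.59 (SE 0.52, limma adjusted p = 1.00), which was 0.06 without Mdm2 C462A replicate 2 and 1.12 without replicate 1. The intervals, -0.51 to 1.77 and -0.65 to 1.84, allow differences of either sign.

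Trp53 transcripts were read in every library although all were labelled as p53 knockouts. Trp53 had 687, 1396 and 1244 normalized reads in p53 KO replicates 1, 2 and 3, 1603 and 1775 in p53/Mdm2 KO replicates 1 and 2, and 1339 and 1668 in Mdm2 C462A replicates 1 and 2. Both p53/Mdm2 KO libraries were above all p53 KO libraries, a pattern of 8.99% of tested genes in that direction, and Mdm2 C462A replicate 1 fell within the p53 KO range. p53 KO replicate 1 held the lowest Trp53 level, and leaving it out moved both differences from p53 KO more than leaving out any other library did. Counting error was between 2.30% and 3.64%.

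Trp53 averaged 1689 ± 122 normalized reads over the 2 p53/Mdm2 KO libraries (SD) against 1109 ± 373 over the 3 of p53 KO, higher by 0.66 on the log2 scale with an interval of -0.11 to 1.43 (SE 0.32, limma adjusted p = 1.00). Without p53 KO replicate 1 this was 0.35. Mdm2 C462A, with 1503 ± 232 (n = 2), lay above p53 KO by 0.49 (SE 0.32, limma adjusted p = 0.645), which was 0.18 without p53 KO replicate 1 and 0.02 without both libraries that stood apart. Mdm2 C462A lay below p53/Mdm2 KO with -0.17 on the log2 scale (SE 0.35, limma adjusted p = 1.00), with an interval of -1.02 to 0.67. As for Mdm2, gene totals cannot show whether the labelled knockout is present.

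**Figure D2:**
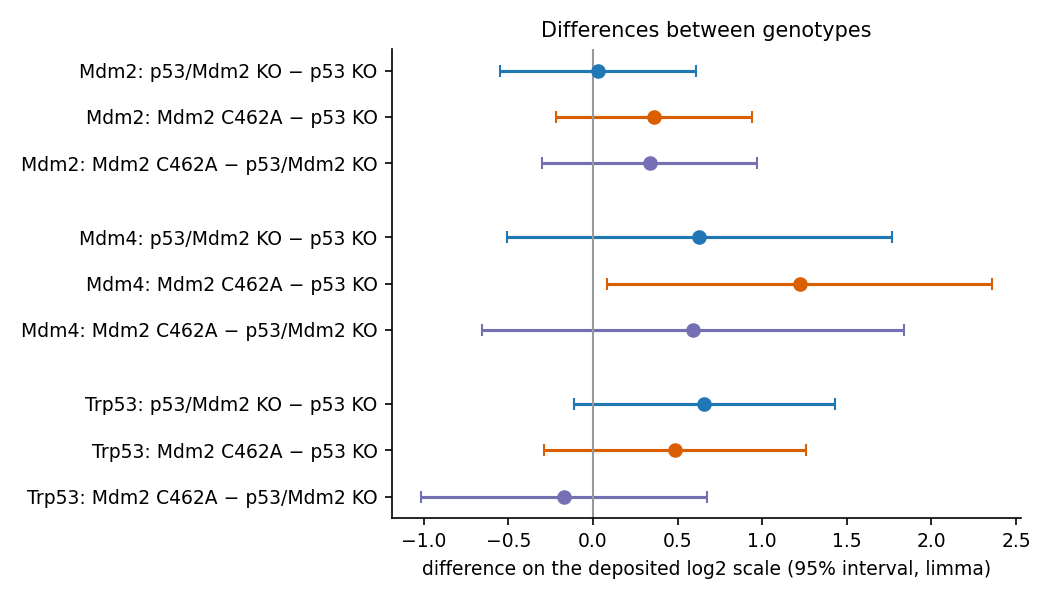
Differences between genotypes for Mdm2, Mdm4 and Trp53 on the deposited log2 scale (horizontal axis), with 95% intervals from limma. Only the interval of Mdm4 for Mdm2 C462A against p53 KO (0.08 to 2.36) lies wholly above 0, and it is not adjusted for the number of genes tested.

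None of the 3 genes was called in any comparison, and neither was any other gene. Limma's adjusted threshold of 0.05 was passed by 0 of 16900 genes (0%) in each of the 3 comparisons. An unadjusted p under 0.05 was found for 507 genes (3%) when p53/Mdm2 KO was set against p53 KO, with 1.51% of all genes higher and 1.49% lower. Setting Mdm2 C462A against p53 KO gave 1761 (10.4%), with 4.98% higher and 5.44% lower, and the contrast of the Mdm2 mutants gave 503 (2.98%), with 1.2% higher and 1.78% lower in Mdm2 C462A. Mdm4 in the comparison of Mdm2 C462A with p53 KO was the 1 member among them. Voom on the recovered reads also called 0 genes in each. The comparisons with p53 KO share its 3 libraries.

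Mdm4 and Trp53 each had a second row in the table under an older name. Mdmx is a synonym of Mdm4 and p53 a synonym of Trp53 in the RefSeq gene table, while Mdm2 had 1 row. The row Mdmx had 123, 85.4 and 216 normalized reads in p53 KO replicates 1, 2 and 3, 156 and 265 in p53/Mdm2 KO, and 204 and 419 in Mdm2 C462A replicates 1 and 2. Its libraries stood in nearly the same order as those of Mdm4, with the lowest in p53 KO replicate 2 and the highest in Mdm2 C462A replicate 2. The row p53 had 183, 369 and 282 normalized reads in p53 KO replicates 1, 2 and 3, 475 and 431 in p53/Mdm2 KO replicates 1 and 2, and 354 and 430 in Mdm2 C462A. As with Trp53, it was lowest in p53 KO replicate 1 and highest in p53/Mdm2 KO, and both p53/Mdm2 KO libraries exceeded all p53 KO libraries, as for 8.99% of tested genes.

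The second row took a nearly constant share of a gene's reads. Mdmx held between 15.5% (p53 KO replicate 1, exact 95% binomial interval 13.2% to 18.1%) and 18.9% (p53 KO replicate 3, 16.5% to 21.3%) of the reads of both Mdm4 rows, a spread with a chi-square of 0.904 per degree of freedom over the 7 libraries. The row p53 held between 18.5% (p53 KO replicate 3, 16.5% to 20.6%) and 22.9% (p53/Mdm2 KO replicate 1, 21.1% to 24.7%) of the reads of both Trp53 rows, with 2.05 per degree of freedom. These intervals cover counting error only. Whether the rows divide a gene's reads or count some reads in both is not given in the sources used here. The log2 difference of Mdm2 C462A from p53 KO was 1.05 for Mdmx (SE 0.48, limma adjusted p = 0.511) beside 1.22 for Mdm4, and that of p53/Mdm2 KO from p53 KO was 0.72 for the row p53 (SE 0.32, limma adjusted p = 1.00) beside 0.66 for Trp53. With the rows summed, these values were 1.21 for Mdm4 and 0.68 for Trp53.

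**Figure D3:**
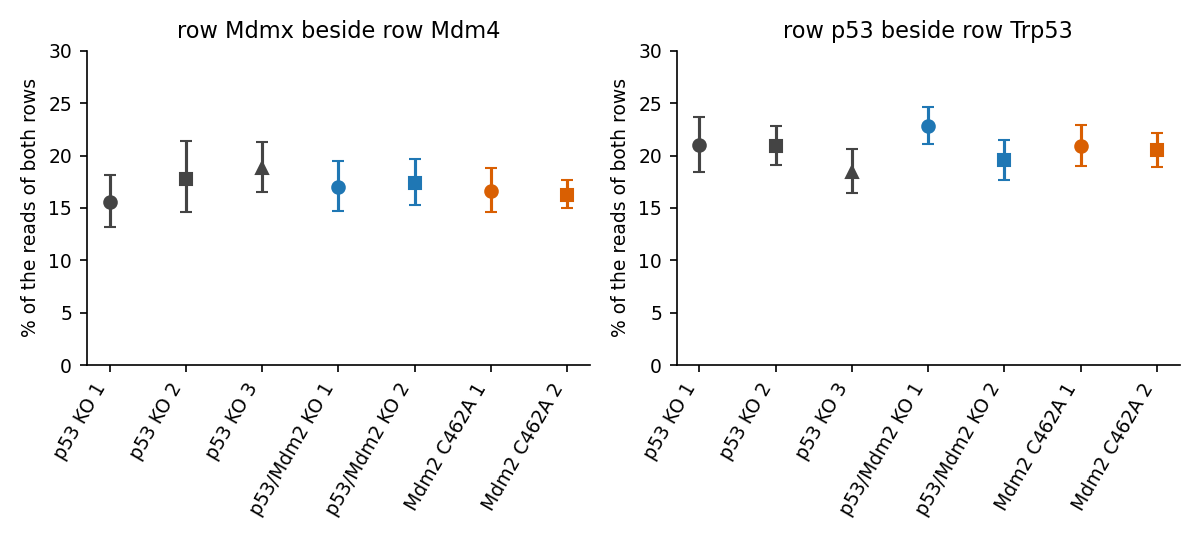
Share of reads in the second row of a gene (vertical axis, % of the reads of both rows) in each library, for Mdmx beside Mdm4 and p53 beside Trp53, with exact 95% binomial intervals as bars. The shares stay between 15.5% and 18.9% for Mdmx and between 18.5% and 22.9% for p53.

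Per kilobase of transcript, Mdm4 was the least abundant of the 3 in 7 of 7 libraries. With the GENCODE transcripts matched to the curated RefSeq entries, of 3099 bases for Mdm2, 3490 for Mdm4 and 1771 for Trp53, p53 KO had 608 ± 40.8 normalized reads per kilobase of Mdm2 (SD, n = 3), 190 ± 76.5 of Mdm4 and 626 ± 211 of Trp53. Mdm2 C462A had 794 ± 195, 456 ± 229 and 849 ± 131 (n = 2), and p53/Mdm2 KO had 631 ± 173, 290 ± 102 and 954 ± 68.8 (n = 2). Trp53 exceeded Mdm2 in 6 of 7 libraries, all but p53 KO replicate 1, but within p53 KO and Mdm2 C462A these neighbours in the order differed by less than their spread. The authors' annotation is not given in the sources used here, and the longest Mdm4 transcript has 7105 bases, which would lower its p53 KO level to 93.4 normalized reads per kilobase. The rows Mdmx and p53 were left out of these levels, which are too low for Mdm4 and Trp53 if those rows hold separate reads.

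Ratios between the genes within a library do not depend on how libraries were scaled. They use the rows Mdm4 and Trp53 alone, so they are too low against Mdm2 if the rows Mdmx and p53 hold separate reads. Per 100 Mdm2 reads there were 38.3, 19.8 and 48.5 Mdm4 reads in p53 KO replicates 1, 2 and 3, 48.3 and 54.1 in p53/Mdm2 KO replicates 1 and 2, and 50.4 and 74.7 in Mdm2 C462A replicates 1 and 2. The Mdm2 C462A libraries were above every p53 KO library, p53/Mdm2 KO replicate 1 lay just under p53 KO replicate 3, and 5 libraries fell between 38.3 and 54.1. The difference of Mdm2 C462A from p53 KO was 0.86 on the log2 scale (exact permutation test, two-sided p = 0.200, adjusted over 9 tests p = 0.600). With 3 against 2 libraries that test cannot give a p under 0.200, and with 2 against 2 none under 0.333.

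Trp53 reads per 100 Mdm2 reads were 39.4, 70.0 and 65.0 in p53 KO replicates 1, 2 and 3, 102 and 76.1 in p53/Mdm2 KO, and 65.9 and 57.8 in Mdm2 C462A replicates 1 and 2. Both p53/Mdm2 KO libraries were above all other libraries, by a log2 difference of 0.63 from p53 KO (exact permutation test, two-sided p = 0.200, adjusted p = 0.600) and with Mdm2 C462A lower than p53/Mdm2 KO by -0.51 (exact p = 0.333, adjusted p = 0.600). Mdm4 reads per 100 Trp53 reads were 97.2, 28.3 and 74.7 in p53 KO, 47.4 and 71.1 in p53/Mdm2 KO and 76.6 and 129 in Mdm2 C462A, so the p53 KO libraries alone spanned most of the range. None of the 9 tests had an adjusted p under 0.600.

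**Figure D4:**
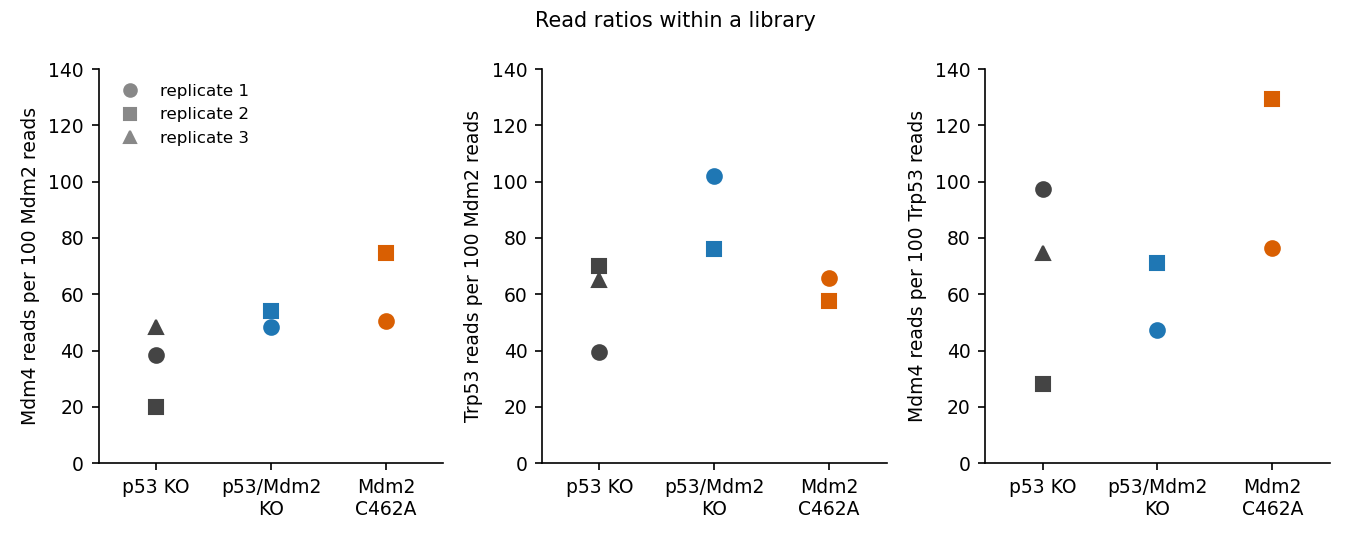
Reads of the first gene per 100 reads of the second (vertical axes) within each library, for the 3 pairs of genes, by genotype and replicate. Mdm4 per 100 Mdm2 reads is lowest in p53 KO replicate 2 (19.8) and highest in Mdm2 C462A replicate 2 (74.7).

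Mdm2 and Mdm4 tended to be high in the same libraries, without passing the test. Over the 7 libraries their deposited values gave Pearson's r = 0.73 (exact permutation p = 0.0726, adjusted over 3 pairs p = 0.218) and Spearman's rho = 0.75 (exact permutation p = 0.0663, adjusted p = 0.199). Without Mdm2 C462A replicate 2 and p53/Mdm2 KO replicate 1, which lay farthest from the median of Mdm2, r was 0.50. It was 0.38 without Mdm2 C462A replicate 2 alone and 0.96 without p53 KO replicate 2 alone, so the relation rests on single libraries. Mdm2 and Trp53 had r = 0.46 (exact permutation p = 0.248, adjusted p = 0.346) and rho = 0.57 (exact permutation p = 0.200, adjusted p = 0.200), and Mdm4 and Trp53 r = 0.41 (exact permutation p = 0.346, adjusted p = 0.346) and rho = 0.57 (exact permutation p = 0.200, adjusted p = 0.200). Their r without the 2 farthest libraries was 0.92 and 0.71. The libraries share genotypes, and each genotype has too few for a value of its own.

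No gene next to the 3 loci was called. Of the 12 nearest protein-coding neighbours in the RefSeq table, 10 passed the filter on low values, 0 were called in any comparison, and Nfasc and Shbg fell under it with at most 17.3 and 0.928 normalized reads. Beside Mdm2, the sugar transporter gene Slc35e3 had 1202, 1164 and 1296 normalized reads in p53 KO, 1883 and 1563 in p53/Mdm2 KO, and 2285 and 1223 in Mdm2 C462A. Both p53/Mdm2 KO libraries lay above p53 KO, as for 8.99% of tested genes, with a log2 difference of 0.49 (limma adjusted p = 1.00). Nup107, a nuclear pore gene on the same side, had 3139, 3946 and 3374 normalized reads in p53 KO and 2295 and 1838 in Mdm2 C462A, a log2 difference of -0.75 (limma adjusted p = 0.437), opposite in sign to Mdm2. Cpsf6 and Cpm on the other side had log2 differences of 0.02 and 0.01 for p53/Mdm2 KO against p53 KO.

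Beside Mdm4, the phosphatase subunit gene Ppp1r15b had log2 differences of 0.24 and 0.23 from p53 KO in p53/Mdm2 KO and Mdm2 C462A, and Pik3c2b, a lipid kinase gene, -0.01 and 0.11. On the other side Lrrn2, read between 0 and 51.2 normalized reads, had 0.30 and 0.76. Mdm4 itself had 0.63 and 1.22. Beside Trp53, its divergent neighbour Wrap53, which encodes a telomerase holoenzyme protein, had 579, 452 and 346 normalized reads in p53 KO replicates 1, 2 and 3, 410 and 436 in p53/Mdm2 KO, and 387 and 315 in Mdm2 C462A. Wrap53 was highest in p53 KO replicate 1, where Trp53 was lowest and which stood apart in the principal component analysis. Its log2 differences from p53 KO were -0.08 and -0.35, where those of Trp53 were 0.66 and 0.49. The promoter window of Trp53 is shown because it overlaps a promoter window of Wrap53. The window of 300 bases is from RefSeq on GRCm38.p6, chr11:69580109-69580408, plus strand, 5′ to 3′, while the deposited values name the build mm9. Capitals mark the 1 match to CACGTG (the E-box, the same on both strands).
Trp53: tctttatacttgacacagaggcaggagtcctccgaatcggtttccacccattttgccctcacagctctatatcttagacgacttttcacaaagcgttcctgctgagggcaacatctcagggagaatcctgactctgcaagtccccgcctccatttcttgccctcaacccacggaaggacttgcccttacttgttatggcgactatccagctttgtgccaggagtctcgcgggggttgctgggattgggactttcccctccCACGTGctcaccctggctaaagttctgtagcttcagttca
This window shares 208 bases with 1 of the 2 Wrap53 windows in the RefSeq table, at chr11:69580201-69580500 on the minus strand, and none with the other. The E-box letters are present in 7.15% of the 32851 promoter windows of this length, and a match describes the letters alone. The shared bases are those of promoter windows, and whether transcripts of the divergent genes overlap there was not examined. The strand setting of the counting is unknown.

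Genes that control the stability of p53 and Mdm2 were split between directions. Of 34 listed and tested genes, p53/Mdm2 KO had higher values than p53 KO for 15 and lower values for 19. Their median log2 difference was -0.06, that of all genes -0.01, and 0 were called. In Mdm2 C462A against p53 KO the counts were also 15 and 19 (median -0.08, all genes 0.01, 0 called). The shares of all tested genes that were higher were 48.2% and 51.2% in these comparisons. Cdkn2a, whose Arf product inhibits Mdm2, had 3901, 9981 and 8753 normalized reads in p53 KO, 10690 and 8155 in p53/Mdm2 KO and 13727 and 9397 in Mdm2 C462A. As for Trp53, p53 KO replicate 1 was lowest, a library that stood apart in the principal component analysis. Usp7, the deubiquitinase of p53 and Mdm2, had 4889 ± 653 in p53 KO (n = 3), 4418 ± 840 in p53/Mdm2 KO and 3846 ± 149 in Mdm2 C462A (n = 2 each). Rchy1, another p53 ubiquitin ligase gene, had a log2 difference of 0.77 in Mdm2 C462A against p53 KO (limma adjusted p = 0.459), and Rassf1, a tumour suppressor gene whose product binds Mdm2, -0.54 (limma adjusted p = 0.437). Mtbp, which encodes an Mdm2-binding protein, had 0.03 and 0.17 in the comparisons with p53 KO, and the nucleolar gene Gnl3 0.41 and the acetyltransferase gene Crebbp -0.43 in p53/Mdm2 KO. Rassf1 (-0.59) and the ubiquitin-conjugating enzyme gene Ube2d2 (-0.29) had the smallest unadjusted p between the Mdm2 mutants. There 17 listed genes were higher and 17 lower, and 51.7% of all tested genes were higher in Mdm2 C462A.

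Genes of kinases and phosphatases acting on p53 and Mdm2 were mostly lower in both Mdm2 mutants. Against p53 KO, 19 of 23 were lower in p53/Mdm2 KO (median -0.11) and 20 of 23 in Mdm2 C462A (median -0.22), where 48.2% and 51.2% of all tested genes were higher, and 0 were called. Plk1, a mitotic kinase, had 3546, 3805 and 3625 normalized reads in p53 KO, 2378 and 2853 in p53/Mdm2 KO and 1954 and 896 in Mdm2 C462A. The 3 groups did not overlap, and such a pattern of lower values was found for 9.2% of all tested genes in p53/Mdm2 KO against p53 KO, 14.4% where Mdm2 C462A was set against p53 KO, and 17.1% where it was set against p53/Mdm2 KO. The log2 difference of Mdm2 C462A from p53 KO was -1.45 (limma adjusted p = 0.437). Aurka, another mitotic kinase, had -0.88 (limma adjusted p = 0.437), and Akt2 had -0.60 in p53/Mdm2 KO (limma adjusted p = 1.00). Between the Mdm2 mutants 17 of 23 were lower in Mdm2 C462A, where 51.7% of all tested genes were higher. Plk1 was at -0.96 and Aurka at -0.82. Ppm1d, the phosphatase that reverses p53 activation, had -0.08 and -0.22 against p53 KO. Ribosomal protein genes whose products bind Mdm2 were higher in 8 of 10 in p53/Mdm2 KO and 6 of 10 in Mdm2 C462A (medians 0.11 and 0.13, 0 called), with Rps7 at 0.25 and 0.22, Rpl23 at 0.20 in the former and Rpl5 at 0.27 in the latter. Between the Mdm2 mutants 7 of 10 were lower in Mdm2 C462A, with Rps25 at -0.25 and Rpl11 at -0.26.

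Of the p53 family, Trp73 was at or under 3 reads in every library. Trp63 had 378 normalized reads in p53 KO replicate 1 and between 1.86 and 8.63 in every other library, so its group mean rests on that library. Among 22 tested family members and cofactors, 14 were lower in p53/Mdm2 KO and 15 in Mdm2 C462A than in p53 KO. Their medians were -0.11 and -0.17, 0 were called, and 48.2% and 51.2% of all tested genes were higher. Trp53inp1, a stress-induced p53 cofactor and target, had 188, 219 and 485 normalized reads in p53 KO, 509 and 157 in p53/Mdm2 KO and 867 and 2297 in Mdm2 C462A, a log2 difference of 2.29 from p53 KO (limma adjusted p = 0.437). Brca1, a DNA repair gene, had -1.05 (limma adjusted p = 0.437). In p53/Mdm2 KO, Pml, the gene of the nuclear body scaffold, had -0.53 and Ing1 -0.28 (limma adjusted p = 1.00 for both). Between the Mdm2 mutants 10 of 22 were higher in Mdm2 C462A, beside 51.7% of all tested genes. Trp53inp1 was at 2.23 and Brca1 at -0.67.

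Direct p53 target genes were read without p53 and had no common direction. Of 41 tested, p53/Mdm2 KO had higher values than p53 KO for 16 and lower values for 25 (median -0.07). Mdm2 C462A had higher values than p53 KO for 23 and lower values for 18 (median 0.11), and 0 were called in either. The shares of all tested genes that were higher were 48.2% and 51.2%. Phlda3, an inhibitor of Akt, had 2010, 1656 and 1827 normalized reads in p53 KO, 1018 and 1133 in p53/Mdm2 KO and 646 and 562 in Mdm2 C462A. The 3 groups did not overlap, as was so for lower values of 9.2% (p53/Mdm2 KO) and 14.4% (Mdm2 C462A) of tested genes beside p53 KO and 17.1% between the mutants. The log2 differences from p53 KO were -0.75 (limma adjusted p = 1.00) and -1.57 (limma adjusted p = 0.300). Cdkn1a, the cell cycle inhibitor p21, had 70.0, 399 and 200 in p53 KO, 448 and 223 in p53/Mdm2 KO and 397 and 347 in Mdm2 C462A, and Ccng1, a cyclin gene, 2336 ± 236, 2157 ± 278 and 2170 ± 48.7. Perp, a desmosomal gene, had 2.03 in p53/Mdm2 KO (limma adjusted p = 1.00). Its groups overlapped, with 5.45, 33.4 and 149 normalized reads in p53 KO and 317 and 139 in p53/Mdm2 KO. Gtse1, a p53-binding cell cycle gene, had a log2 difference of -1.47 in Mdm2 C462A (limma adjusted p = 0.437). Between the Mdm2 mutants 23 of 41 were higher in Mdm2 C462A (median 0.09), beside 51.7% of all tested genes. Phlda3 was at -0.81 and Gtse1 at -1.17.

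Factors reported to drive Mdm2 transcription without p53 did not share a direction. Of 20 tested, 11 were higher in p53/Mdm2 KO and 9 in Mdm2 C462A than in p53 KO (medians 0.05 and -0.08, 0 called). The shares of all tested genes that were higher were 48.2% and 51.2%. Ets2, an ETS-family factor, had 676, 1514 and 1282 normalized reads in p53 KO, 1698 and 1239 in p53/Mdm2 KO and 1870 and 4807 in Mdm2 C462A, a log2 difference of 1.44 from p53 KO (limma adjusted p = 0.448). Its highest library was Mdm2 C462A replicate 2, as for Mdm2 and Mdm4, and this library stood apart in the principal component analysis. The share of all genes highest there was not counted. Smad3, a transducer of TGF-beta signals, had -0.47 in p53/Mdm2 KO (limma adjusted p = 1.00) and -0.51 in Mdm2 C462A (limma adjusted p = 0.464). Esr1 had -0.65 in p53/Mdm2 KO. Esr1 was highest in p53 KO replicate 1 (109 normalized reads), with 44.6 and 31.3 in replicates 2 and 3 and 30.6 and 27.0 in p53/Mdm2 KO. Between the Mdm2 mutants 11 of 20 were higher in Mdm2 C462A, beside 51.7% of all tested genes. Elk1 was at 0.41 and Jun at -1.15.

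Among 31 partners of Mdm2 other than p53, 18 were lower in p53/Mdm2 KO and 23 in Mdm2 C462A than in p53 KO. Their medians were -0.11 and -0.19, 0 were called, and 48.2% and 51.2% of all tested genes were higher. The list was chosen with Polycomb subunits in it. Ezh2, the catalytic subunit of PRC2, had 2171, 1980 and 1761 normalized reads in p53 KO, 1632 and 2397 in p53/Mdm2 KO and 1444 and 1066 in Mdm2 C462A, where both libraries were below all others. Lower values without overlap were found for 14.4% of tested genes beside p53 KO and 17.1% beside p53/Mdm2 KO. Its log2 differences from p53 KO were 0.01 in p53/Mdm2 KO (limma adjusted p = 1.00) and -0.65 in Mdm2 C462A (limma adjusted p = 0.452). The other PRC2 core genes Suz12 and Eed had 0.17 and -0.19 in the former and -0.03 and -0.34 in the latter. The PRC1 ligase genes Ring1 and Rnf2 had -0.53 and -0.18 in p53/Mdm2 KO and -0.17 and -0.05 in Mdm2 C462A. Ring1 was highest in p53 KO replicate 1 (749 normalized reads), which stood apart in the principal component analysis. Replicates 2 and 3 had 354 and 413, p53/Mdm2 KO 373 and 283, and Mdm2 C462A 326 and 547. Rybp, whose product joins PRC1 and Mdm2, had log2 differences of -0.14 and -0.19 in the same order. Yy1, a Polycomb-linked factor that binds Mdm2, had 0.14 and -0.07. Snai1, a repressor of epithelial genes, had 2540, 1585 and 1539 normalized reads in p53 KO and 762 and 532 in Mdm2 C462A, a log2 difference of -1.50 (limma adjusted p = 0.437), and Rbl1, a pocket protein gene, -0.92. In p53/Mdm2 KO the Snai1 relative Snai2 had -0.69 and the arrestin gene Arrb1 -1.06 (limma adjusted p = 1.00 for both). Both genes were highest in p53 KO replicate 1, with 3856 and 1156 normalized reads. Replicates 2 and 3 had 1931 and 1963 for Snai2 and 488 and 545 for Arrb1. The p53/Mdm2 KO libraries had 1569 and 1454 for Snai2 and 213 and 458 for Arrb1. Between the Mdm2 mutants 21 of 31 were lower in Mdm2 C462A, where 51.7% of all tested genes were higher. Snai1 was at -1.06 and the forkhead factor gene Foxo3 at 0.85.

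**Figure D5:**
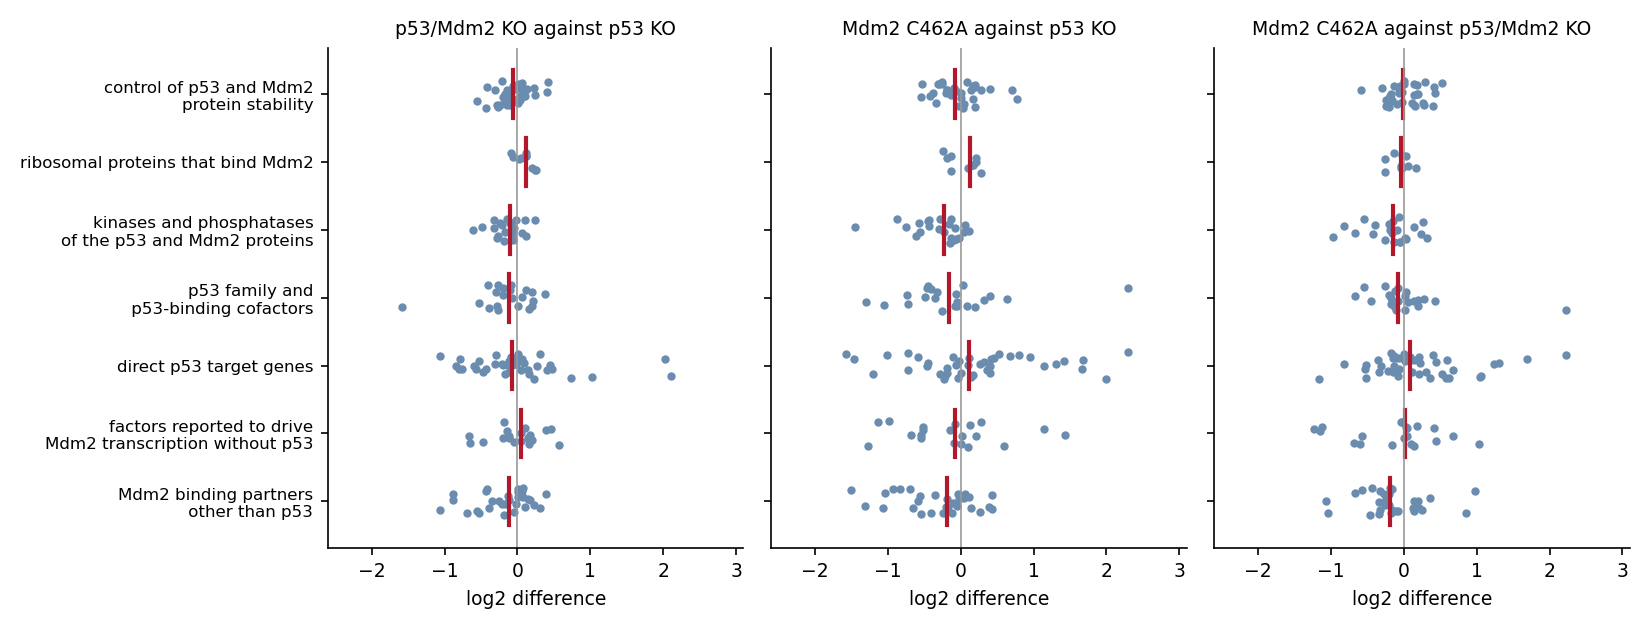
Log2 differences (horizontal axes) of the tested genes of 7 lists around Mdm2, Mdm4 and p53 in the 3 comparisons, with each gene as a point and each list's median as a red line. In the comparisons with p53 KO, medians were -0.11 and -0.22 for kinases and phosphatases. They were -0.11 and -0.17 for the p53 family and -0.11 and -0.19 for Mdm2 partners. The protein stability list (-0.06 and -0.08) was also left of 0 in both, and 0 genes were called.

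Genes whose pattern over the 7 libraries was most like each transcript were ranked by Pearson's r on the deposited values, among tested genes with a range of at least 1. These are descriptions over 7 points that share libraries, and carry no test. For Mdm2 the closest of 6460 genes were Prkaa2, the gene of a catalytic subunit of AMP-activated kinase (r = 0.95), the row CLCN3 (0.94), Rsbn1 (0.94) and Zbtb20 (0.94), and the most opposite were Ptms (-0.94) and Leprot (-0.93). For Mdm4 they were Rab11fip2, a gene of vesicle recycling (0.97), Zfp712 (0.94), Tmem161b (0.94) and Zfp938 (0.93), with Rhog (-0.97) and Syt17 (-0.95) opposite. Without Mdm2 C462A replicate 2, Rab11fip2 still had r = 0.97 with Mdm4, while Zfp712 had 0.93, Tmem161b 0.88 and Zfp938 0.87. With Mdm2, Prkaa2 then had 0.96, CLCN3 0.86, Rsbn1 0.84 and Zbtb20 0.85, and Ptms had -0.83 and Leprot -0.82. For Trp53 they were the endocytic receptor gene Lrp2 (0.99), the cathepsin gene Ctsh (0.99), Jam2 (0.98) and Lrrc4c (0.98), with Msrb2 (-0.99) and Snai2 (-0.99) opposite. Trp53 had 158 genes with r above 0.9 and 238 beyond the same size with a negative sign. Mdm2 had 13 and 8, and Mdm4 had 10 and 9. Trp53 was lowest in p53 KO replicate 1, which stood apart on the leading principal component. The counts were not repeated without that library, so its part in them was not tested. Lrp2 ranged from 20.0 normalized reads to 5068, and its r with Trp53 was 0.95 without p53 KO replicate 1, while that of Lrrc4c was 0.88.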

How the data were processed

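RNA of mouse embryonic fibroblasts was sequenced in 7 libraries; the labels' protocols give 50 bp single-end runs. The submitters' processing notes list mm9, DESeq 1.14.0, Bowtie2 2.1.0 and CASAVA 1.8.2 and give none a role. How reads were counted, on which annotation and with which strand setting, is not given in the sources used here. The authors deposited 1 log2-scale value per gene and library, after a variance-stabilizing transformation of size-factor normalized reads. A gene with no reads has 3.36 in all columns, and inverting the parametric transformation from that value gave normalized reads and, after division by 1 step per library, whole reads: with a tolerance of 0.05, 100% of the values came out whole. In units of 1 M, libraries held 40.7, 41.5 and 35.9 reads in p53 KO replicates 1, 2 and 3, 39.8 and 28.5 in p53/Mdm2 KO replicates 1 and 2, and 35.9 and 39.8 in Mdm2 C462A.

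The 16900 rows with a mean of at least 10 normalized reads were fitted with limma 3.58.1 (R 4.3.3) on the deposited values, using all 7 libraries, 1 mean per group and a trend of variance with mean. P-values are two-sided with Benjamini-Hochberg adjustment over all rows tested and a threshold of 0.05. Because the files hold log2 values and not counts, limma was fitted to these values, and voom on the recovered reads was run as an alternative. Exact permutation tests used scipy 1.17.1. The fit was tested on simulated data. Named genes beyond the 3 are fixed partners and targets, the nearest protein-coding neighbours, the 2 members of each list with the smallest unadjusted p in a comparison, and the 4 most similar and 2 most opposite genes by pattern, leaving out unnamed transcripts. Members and lists were chosen with earlier results of these data known. Of the listed genes, 3 were not matched by symbol. Replicates were grouped by sample titles. Alternatives covered filter, scale, scaling, variance model, replicate block and left-out libraries, and the sum of rows of the same gene was chosen after seeing the data.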

Additional observations from a re-analysis of the deposited data

How the results depend on the processing

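No member passed limma's adjusted threshold under any alternative run, and the count of called genes was 0 under all of them except 1 gene for p53/Mdm2 KO against p53 KO without both libraries that stood apart. The Mdm2 difference of p53/Mdm2 KO from p53 KO, 0.03, turned to -0.0251 with sample weights and -0.0267 without both libraries that stood apart, and ran from -0.25 to 0.31 as each library was left out. With 1 library left out, the other differences kept their sign: for Mdm2, 0.11 to 0.61 (Mdm2 C462A against p53 KO) and 0.05 to 0.62 (against p53/Mdm2 KO), for Mdm4, 0.27 to 0.99, 0.69 to 1.75 and 0.06 to 1.12, and for Trp53, 0.35 to 0.85, 0.18 to 0.68 and -0.33 to -0.02, in the order of the comparisons above. Where a group was left with 1 library, it was assumed to vary like the others.

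The ratio of Trp53 to Mdm2 in Mdm2 C462A against p53 KO ran from -0.13 to 0.28, that of Mdm4 to Trp53 in p53/Mdm2 KO against p53 KO from -0.54 to 0.32, and that of Mdm4 to Mdm2 between the Mdm2 mutants from -0.0198 to 0.54. The r of Mdm2 and Mdm4 was 0.78 with scaling by total reads (exact permutation p = 0.0464, unadjusted) and from 0.38 to 0.96 with 1 library left out, that of Mdm2 and Trp53 from 0.38 to 0.76. The causes were not tested. Scaling by total reads moved the median of all genes to 0.10 for Mdm2 C462A against p53 KO, where Mdm4 was then 1.32.

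The labels do not say whether replicate numbers pair the samples. Deviations of same-numbered samples from their group means correlated between -0.16 and 0.20. In a group of 2 libraries these deviations mirror each other, so the values cannot settle whether samples were paired. With the replicate block the Mdm4 difference of Mdm2 C462A from p53 KO was 1.497 (limma adjusted p = 0.545), those of p53/Mdm2 KO were 0.04 for Mdm2, 0.91 for Mdm4 and 0.77 for Trp53, and 0 genes were called.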

Other observations

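A second row under an older name was not particular to Mdm4 and Trp53. In the table, 601 of 29955 rows (2.01%) carry a name that the RefSeq gene table gives as a synonym of exactly 1 other row. Sox2, a stem cell factor, had 493 normalized reads in p53 KO replicate 1 and at most 13.03 in any other library, in the same library that held nearly all reads of Trp63.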
